A study of Mus musculus with 6 samples.

Results

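The mouse genome has 39 protein-coding Hox genes, in the 4 clusters HoxA, HoxB, HoxC and HoxD, and the deposited count table holds each of them among its 55804 rows. Members were chosen by name alone, as Hoxa, Hoxb, Hoxc or Hoxd followed by a number and annotated as protein-coding. They were followed in C2C12 cells, a mouse myoblast line labelled as skeletal muscle cells, with a CRISPR/Cas9 guide to Prr33 (Prr33-gRNA, genotype label PRR33 knocked down) or a control guide (Ctrl-gRNA, genotype label WT), in a study of what PRR33 does as myoblasts differentiate. Both groups had grown in DMEM with 20% fetal bovine serum and spent 3 days in medium with 2% horse serum, which starts differentiation, and each had 3 libraries. The design text speaks of a single established knockdown line and the labels do not mention separate cultures, so guide and derived line cannot be told apart, and the p-values rest on library-to-library spread that may be purely technical.

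Hox genes encode homeodomain transcription factors that give cells their position along the head-to-tail axis and, in the limb, along its length. Within a cluster they lie in the order of their paralogue numbers, and low numbers are used towards the head while high numbers are used towards the tail and in the limbs. Adult fibroblasts and muscle cells retain a Hox pattern from the place they came from, and C2C12 cells derive from mouse thigh muscle. Hox proteins bind DNA together with the TALE homeodomain cofactors of the Pbx, Meis and Pknox families, and their clusters are kept silent by Polycomb and active by trithorax complexes.

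Reads fell on HoxA and HoxC and almost nowhere else in the family, in both groups. Each of the 11 HoxA and 9 HoxC members was detected and passed the filter on low counts. HoxB, with 10 members, gave 0 to 4 reads per library and HoxD, with 9, gave 0 to 1. Beyond that shared pattern, 4 HoxA genes rose and 4 HoxC genes fell in Prr33-gRNA, which is 8 of 20 tested members where 52.1% of all tested genes were called (25.5% higher and 26.6% lower). Hoxa4 stood at 1.86 times its Ctrl-gRNA level, and Hoxc9, the widest difference in HoxC, at 0.557 times.

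Promoters are shown for a pair of expressed HoxA genes and for 2 genes of the nearly silent clusters. Counts per gene do not show which start of a gene was used. They are taken from the RefSeq table of GRCm38.p6, run from 250 bases before to 50 after the start, and are written 5′ to 3′ on the gene's strand with CG dinucleotides in capitals. Hoxa6 (chr6:52208623-52208922, minus strand) was called higher in Prr33-gRNA and Hoxa10 (chr6:52234890-52235189, minus strand; 1 of its 2 starts in the table) has the highest FPKM in HoxA. Hoxd10 (chr2:74691641-74691940, plus strand) is the nearly silent paralogue of Hoxa10, and Hoxb8 (chr11:96281655-96281954, plus strand) lies in HoxB and had 0 counts.
Hoxa6: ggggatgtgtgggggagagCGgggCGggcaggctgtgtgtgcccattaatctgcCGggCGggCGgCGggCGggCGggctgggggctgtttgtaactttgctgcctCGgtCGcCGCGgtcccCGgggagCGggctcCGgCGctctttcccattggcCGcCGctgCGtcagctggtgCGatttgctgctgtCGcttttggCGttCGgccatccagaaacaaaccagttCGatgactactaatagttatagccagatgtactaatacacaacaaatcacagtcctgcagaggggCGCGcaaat
Hoxa10: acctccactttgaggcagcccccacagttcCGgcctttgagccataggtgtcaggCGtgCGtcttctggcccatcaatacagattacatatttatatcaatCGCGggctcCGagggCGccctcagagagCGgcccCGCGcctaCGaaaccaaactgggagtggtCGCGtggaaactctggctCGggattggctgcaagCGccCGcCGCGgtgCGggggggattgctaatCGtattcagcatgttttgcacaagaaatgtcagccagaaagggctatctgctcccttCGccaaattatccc
Hoxd10: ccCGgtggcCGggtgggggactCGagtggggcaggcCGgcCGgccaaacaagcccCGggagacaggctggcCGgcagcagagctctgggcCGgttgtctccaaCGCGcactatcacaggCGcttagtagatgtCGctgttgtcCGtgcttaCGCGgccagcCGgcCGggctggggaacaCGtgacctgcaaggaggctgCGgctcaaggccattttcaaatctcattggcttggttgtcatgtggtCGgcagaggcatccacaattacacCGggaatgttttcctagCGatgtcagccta
Hoxb8: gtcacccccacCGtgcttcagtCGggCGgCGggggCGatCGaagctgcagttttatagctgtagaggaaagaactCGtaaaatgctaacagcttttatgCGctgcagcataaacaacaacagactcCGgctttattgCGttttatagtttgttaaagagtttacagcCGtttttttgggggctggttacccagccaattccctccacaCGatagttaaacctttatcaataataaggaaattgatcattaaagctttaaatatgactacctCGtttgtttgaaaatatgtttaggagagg

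The promoter table held 24 promoters for 22 of the 39 members, among them 10 for HoxA but 1 for HoxC, so HoxC promoters could not be compared. CG dinucleotides numbered 26 in the Hoxa6 promoter, 21 in the printed one of Hoxa10, 22 in that of Hoxd10 and 13 in that of Hoxb8. The promoter at the other Hoxa10 start had 12. The 11 promoters of tested members had 4 to 45 with a median of 15. The 13 promoters of members that were not tested had 4 to 37 with a median of 14, and the median over all 32851 promoters in the table was 7. The CG range of promoters of untested members thus overlapped that of tested ones. Both strands were searched for TATAAA, the TATA box, which was in 1 of the 11 tested and 3 of the 13 other promoters and in 13.6% of all promoters. CCAAT, the box bound by NF-Y, was in 6 of 11 and 9 of 13 (37.4% of all), and TGATNNAT, a Pbx-Hox composite site, in 1 of 11 and 3 of 13 (8.85% of all). These are matches of letters only, and a match of one motif may overlap a match of another.

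Total counts per library were 17412383 to 19471762 in Prr33-gRNA and 17006381 to 19118010 in Ctrl-gRNA, and a library's 3 counts equal 0.150 to 0.182 CPM (counts scaled by TMM library size). Prr33 itself had 793, 829 and 848 counts in the Prr33-gRNA libraries and 1137, 990 and 913 in the Ctrl-gRNA libraries (log2 fold change -0.42; edgeR adjusted p = 1.37e-06), so its transcript was still present. Of the 8 myogenic markers 6 were lower and 2, Myf5 and Ckm, higher, and their summed level was 7995 to 8578 CPM in Prr33-gRNA and 17133 to 17387 CPM in Ctrl-gRNA. Of the 3 neural markers Map2 was higher (log2 fold change 2.69), Tubb3 was lower (-2.27) and Sox10 had 0 counts, and their sum was 3.37 to 4.45 CPM in Prr33-gRNA and 7.97 to 11.9 CPM in Ctrl-gRNA. The smooth muscle sum, nearly all from Acta2, which was lower, was 4693 to 4828 CPM in Prr33-gRNA and 5807 to 5820 CPM in Ctrl-gRNA, and the chondrocyte sum, nearly all from Sox9, which was lower, was 39.1 to 45.5 CPM in Prr33-gRNA and 46.9 to 50.4 CPM in Ctrl-gRNA. Haematopoietic markers summed to 0.849 to 1.55 CPM in Prr33-gRNA and 0.952 to 1.82 CPM in Ctrl-gRNA, all from Cd68, with Ptprc and Adgre1 at 0 counts. Endothelial markers summed to at most 0.276 CPM in Prr33-gRNA and 1.27 CPM in Ctrl-gRNA, adipocyte markers to at most 0.0553 CPM in Prr33-gRNA and 0.0595 CPM in Ctrl-gRNA, and Adipoq and Plin1 had 0 counts. Of 6 tested fibroblast markers 5 were lower and 1 was higher, Lum had 0 counts, and the sum over the list was 825 to 892 CPM in Prr33-gRNA and 1289 to 1393 CPM in Ctrl-gRNA. The part of these shifts in the Hox differences below was not tested, and in bulk RNA fewer cells of a type cannot be told apart from less RNA per cell.

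**Figure D1:**
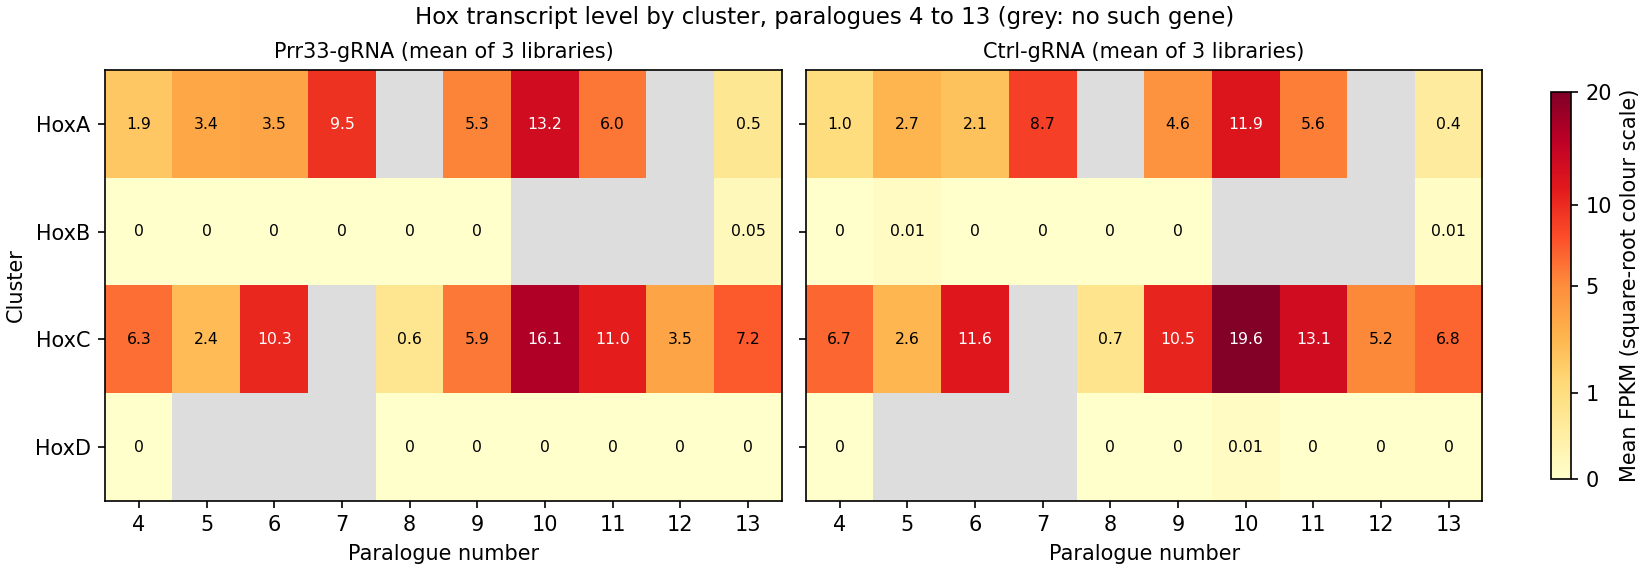
Mean FPKM of the Hox genes numbered 4 to 13 by cluster (rows) and paralogue number (columns). FPKM are the deposited values, counts scaled by gene length and an adjusted library size. Means are over 3 Prr33-gRNA libraries (left) and 3 Ctrl-gRNA libraries (right). The colour scale is a square root and grey marks numbers with no gene. HoxA and HoxC are filled in both groups, with Hoxc10 the highest at 16.1 FPKM in Prr33-gRNA and 19.6 FPKM in Ctrl-gRNA, while HoxB and HoxD are at or near 0.

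Levels are compared between genes in FPKM, the authors' deposited values per gene length. Hoxc10, a gene of the hindlimb and lumbar region, was the highest member in both groups, at 16.1 ± 1.52 FPKM in Prr33-gRNA and 19.6 ± 0.928 FPKM in Ctrl-gRNA (SD, n = 3 each), and its libraries did not overlap those of the next gene in either group. In Prr33-gRNA it was followed by Hoxa10 (13.2 FPKM), Hoxc11 (11.01 FPKM), Hoxc6 (10.3 FPKM) and Hoxa7 (9.46 FPKM). There Hoxc11 overlapped Hoxc6 and Hoxc6 overlapped Hoxa7. In Ctrl-gRNA the order was Hoxc11 (13.1 FPKM), Hoxa10 (11.9 FPKM), Hoxc6 (11.6 FPKM) and Hoxc9 (10.5 FPKM), where Hoxc11 overlapped Hoxa10 and Hoxa10 overlapped Hoxc6. Hoxc9 thus had rank 9 in Prr33-gRNA and rank 5 in Ctrl-gRNA. In Prr33-gRNA its range overlapped those of Hoxc4 (rank 7), Hoxa11 and Hoxa9, so its rank there is not exact. At the low end, Hoxa2, Hoxa3, Hoxc8 and Hoxa13 stayed under 1 FPKM on average in both groups. Hoxc8 stood between Hoxc9 and Hoxc6 on the chromosome yet had 0.584 FPKM in Prr33-gRNA and 0.663 FPKM in Ctrl-gRNA.

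By paralogue class, posterior genes (9 to 13) held most of the Hox signal. Their summed level over the clusters was 68.7 FPKM in Prr33-gRNA and 77.7 FPKM in Ctrl-gRNA on average. Central genes (4 to 8) summed to 37.9 FPKM in Prr33-gRNA and 36.0 FPKM in Ctrl-gRNA. HoxC has no anterior member (1 to 3), and the anterior HoxB and HoxD genes had 0 counts.

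HoxB and HoxD together gave 16 members with 0 counts in all 6 libraries and 3 with a few. Hoxb13, a gene of the tail end, had 2, 4 and 0 counts in the Prr33-gRNA libraries and 0, 1 and 0 in the Ctrl-gRNA libraries. Hoxb5 had 0 counts in Prr33-gRNA and 2, 0 and 0 in Ctrl-gRNA, and Hoxd10 had 0 in Prr33-gRNA and 0, 1 and 0 in Ctrl-gRNA. None of the 3 passed the filter, and none was separated between the groups. For the 16 members at 0, the limit that 3 counts over a group's libraries set was 0.0125 to 0.0343 FPKM in Prr33-gRNA and 0.0135 to 0.0372 FPKM in Ctrl-gRNA, counting error only. In GENCODE M21, Hoxd3, Hoxd4, Hoxb3, Hoxb2 and Hoxd11 share 62.8%, 52.3%, 52.9%, 27.3% and 10.8% of their exonic bases with other genes. Reads there may go uncounted, so the limits of these genes may be too low. These 16 members were not detectable at this depth in either group. Farther out, Lnpk and Mtx2 were transcribed. These genes, 88875 and 60661 bases from the ends of HoxD (chr2:74668310-74765142), averaged 44.5 and 54.9 CPM in Prr33-gRNA and 39.1 and 46.4 CPM in Ctrl-gRNA. Among 11 other genes inside HoxD or within 10 kb of it, including the antisense RNA Haglr and the neighbouring homeobox gene Evx2, 0 had a count in any library. Of 9 such genes for HoxB (chr11:96194316-96368256), the 1 with counts was the pseudogene Gm11539.

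Of the 20 tested members, 4 were higher and 4 lower in Prr33-gRNA (edgeR, adjusted p below 0.05), and 12 did not pass. The share called in the family is not above the 52.1% called among all 14651 tested genes. The groups did not overlap in CPM for 9 of the 20, against 57.9% of tested genes. The 4 that rose all lie in HoxA and the 4 that fell all in HoxC. The median log2 fold change (Prr33-gRNA minus Ctrl-gRNA) was 0.10 over the 20, at 0.34 in HoxA and -0.19 in HoxC, while all tested genes had -0.00 with quartiles of -0.32 and 0.24. All 11 HoxA values were above 0, except that Hoxa11 was at -0.04 without Prr33-gRNA replicate 2. In HoxC 8 of 9 values were below 0, or 7 of 9 when libraries were scaled by size alone, which turned Hoxc4 to above 0 and shifted the median of all genes to 0.09.

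**Figure D2:**
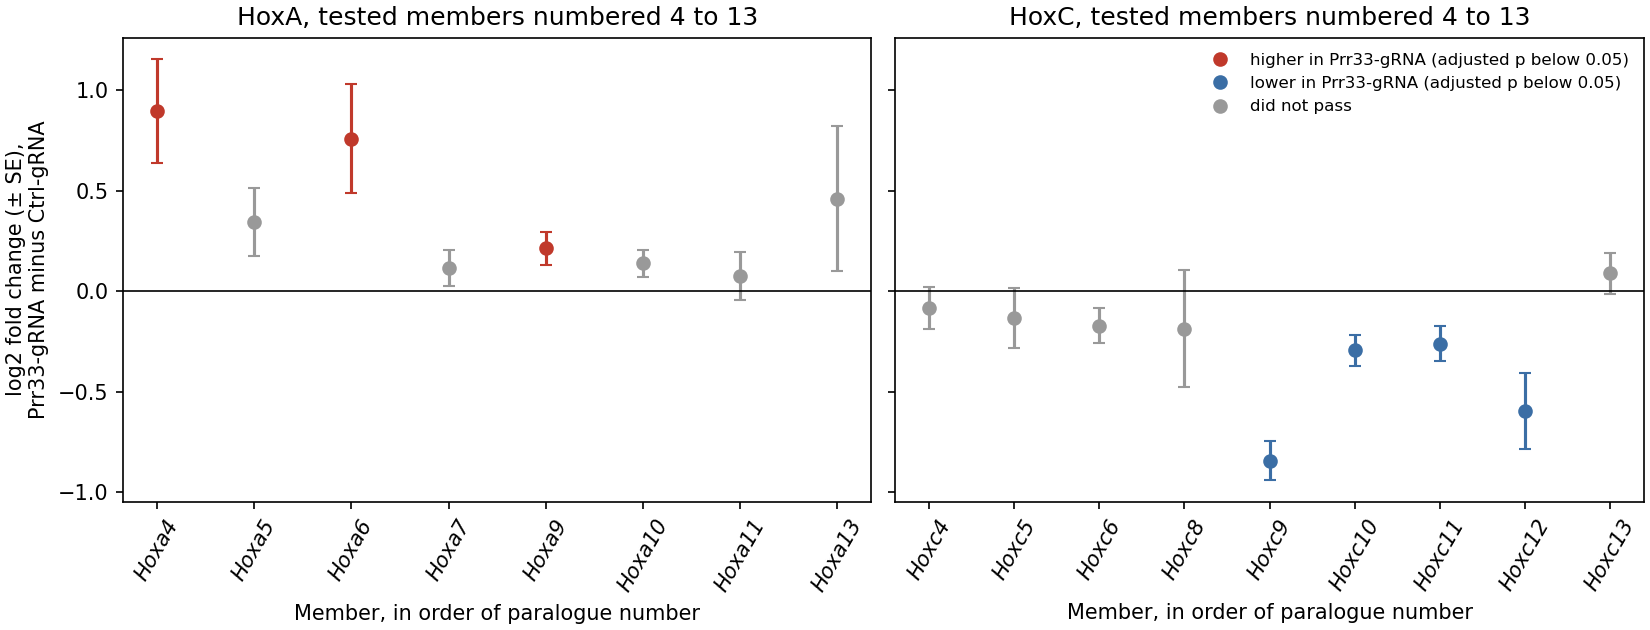
Log2 fold change of Prr33-gRNA minus Ctrl-gRNA with its SE (edgeR, 3 libraries per group) for tested HoxA members numbered 4 to 13 (left) and the 9 tested HoxC members (right), in order of paralogue number; red marks members called higher, blue members called lower and grey members that did not pass. The HoxA values shown lie above 0, from 0.07 for Hoxa11 to 0.89 for Hoxa4, and the called HoxC members are the neighbours Hoxc9 to Hoxc12.

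Hoxa2 and Hoxa3, anterior members that act in the hindbrain and neck of the embryo, had log2 fold changes of 0.36 and 0.31 (edgeR adjusted p = 0.441 and 0.186), and the groups overlapped for each. Hoxa3 shares 27.1% of its exonic bases with other genes in GENCODE M21, and no strand setting is stated for the counting.

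Among the central members, Hoxa4 and Hoxa6 rose. Hoxa4, a gene of the neck and upper trunk, had 3.42, 2.60 and 3.05 CPM in the Prr33-gRNA libraries and 1.51, 1.88 and 1.49 CPM in the Ctrl-gRNA libraries, without overlap. The difference was 0.89 on the log2 scale (SE 0.26; edgeR adjusted p = 0.0042), and 16% of its exonic bases are shared with an opposite-strand RNA. Hoxa6, a gene of the thoracic region, had 2.23, 3.43 and 3.65 CPM in the Prr33-gRNA libraries and 1.89, 2.36 and 1.25 CPM in the Ctrl-gRNA libraries, so that its groups overlapped. It rose by 0.76 on the log2 scale (SE 0.27; edgeR adjusted p = 0.0190), and the call was lost without Ctrl-gRNA replicate 3, Prr33-gRNA replicate 2 or Prr33-gRNA replicate 3 (edgeR adjusted p 0.00616 to 0.114 over the alternatives). Hoxa5, which acts in the lung and the cervical-thoracic spine, had 5.81, 6.63 and 6.90 CPM in the Prr33-gRNA libraries and 4.86, 5.15 and 5.23 CPM in the Ctrl-gRNA libraries. These libraries did not overlap, but Hoxa5 did not pass (log2 fold change 0.34, edgeR adjusted p = 0.0858).

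The central HoxC members did not pass. Hoxc6, the highest of them at 10.3 ± 1.11 FPKM in Prr33-gRNA and 11.6 ± 0.452 FPKM in Ctrl-gRNA (SD, n = 3 each), had a log2 fold change of -0.17 (edgeR adjusted p = 0.0926). It was called lower without Prr33-gRNA replicate 2 (edgeR adjusted p = 0.0218, and 0.0218 to 0.438 over all alternatives). Hoxc4, Hoxc5 and Hoxc8 had log2 fold changes of -0.09, -0.13 and -0.19 with SEs of 0.10, 0.15 and 0.29. Hoxa7, the highest central HoxA member, had 0.12 (SE 0.09), and for all 4 the groups overlapped. In GENCODE M21 Hoxa7 shares 20.4% of its exonic bases with Hoxaas3 on the opposite strand.

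A run of 4 neighbouring genes in HoxC fell. From the 5′ side of the cluster (chr15:102921103-103036852) these are Hoxc12, Hoxc11, Hoxc10 and Hoxc9, and all had lower CPM in each Prr33-gRNA library than in any Ctrl-gRNA library. Hoxc9, a gene of thoracic identity, had 12.7, 14.04 and 16.1 CPM in the Prr33-gRNA libraries, against 26.2, 24.9 and 25.8 CPM in the Ctrl-gRNA libraries (log2 fold change -0.84, SE 0.10; edgeR adjusted p = 4.73e-09). Hoxc12 had 3.15, 3.76 and 3.797 CPM in the Prr33-gRNA libraries, against 5.29, 5.88 and 5.055 CPM in the Ctrl-gRNA libraries (log2 fold change -0.60, SE 0.19; edgeR adjusted p = 0.00823). The other two differed less between the groups. Hoxc10 had 29.5, 34.0 and 28.7 CPM in the Prr33-gRNA libraries, against 39.6, 37.3 and 35.9 CPM in the Ctrl-gRNA libraries (log2 fold change -0.29, SE 0.08; edgeR adjusted p = 0.00174). Hoxc11, like Hoxc10 a gene of the hindlimb, had 23.4, 22.2 and 21.4 CPM in the Prr33-gRNA libraries, against 25.2, 28.5 and 26.5 CPM in the Ctrl-gRNA libraries (log2 fold change -0.26, SE 0.08; edgeR adjusted p = 0.0101). The Hoxc11 call was lost without Ctrl-gRNA replicate 2 and under scaling by library size alone (adjusted p 0.00724 to 0.0865 over the alternatives). Hoxc10 shares 166 of its 1909 exonic bases with Hoxc5, so its count is uncertain there.

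The fall reached neither end of the cluster at this threshold, since the central HoxC members and Hoxc13 did not pass. Hoxc13, the outermost gene and one expressed in hair and nail, had 18.4, 18.5 and 16.6 CPM in the Prr33-gRNA libraries and 15.4, 16.8 and 18.0 CPM in the Ctrl-gRNA libraries, with overlap between groups. Group means differed by 0.09 on the log2 scale (SE 0.10; edgeR adjusted p = 0.490). Between Hoxc12 and Hoxc11 lies Hotair, a noncoding RNA read from the other strand, which averaged 4.69 ± 0.551 CPM in Prr33-gRNA and 5.92 ± 0.597 CPM in Ctrl-gRNA (SD, n = 3 each). Its libraries did not overlap, but it did not pass (log2 fold change -0.34, edgeR adjusted p = 0.110). Between Hoxc11 and Hoxc10, a minus-strand gene model without an Ensembl ID (chr15:102961377-102963397) fell, with 24, 22 and 33 counts in the Prr33-gRNA libraries and 61, 34 and 48 in the Ctrl-gRNA libraries (log2 fold change -0.97, SE 0.28; edgeR adjusted p = 0.00405). It was the single gene called among the 10 tested non-member genes inside the clusters or within 10 kb. Among all tested genes 52.1% were called. Hotairm1, Hoxaas2, Hoxaas3, Gm15050, 5730596B20Rik and Gm27861 in HoxA had log2 fold changes of -0.04 to 0.42, and Gm11539 in HoxB had -0.62.

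**Figure D3:**
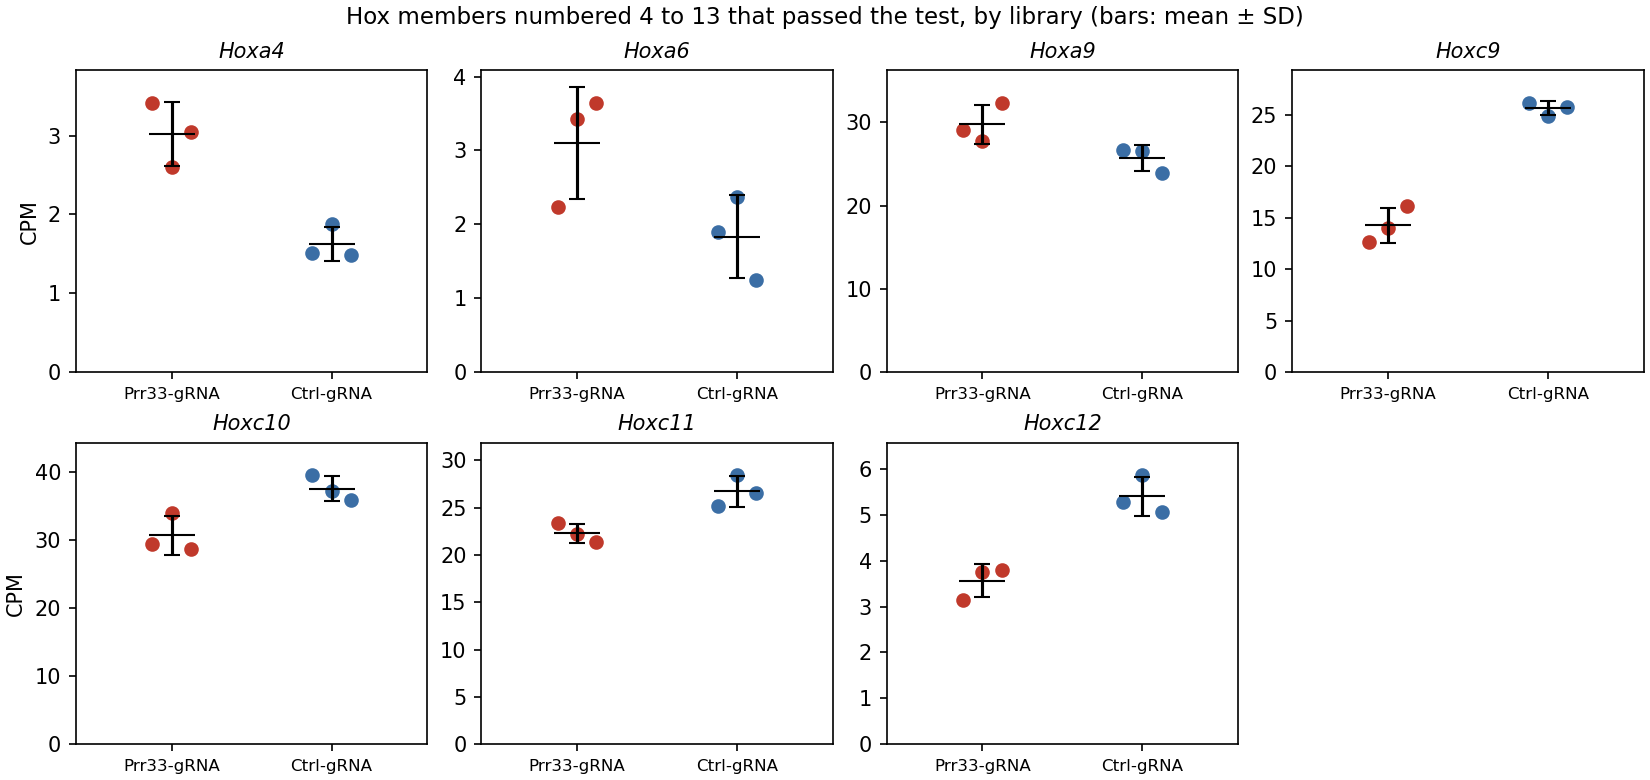
CPM (TMM-scaled) of the 7 Hox members numbered 4 to 13 that passed the test, with 1 point per library, Prr33-gRNA left and Ctrl-gRNA right; bars give the mean ± SD of 3 libraries and each axis starts at 0. The groups are separate for each of the 7 except Hoxa6, where the lowest Prr33-gRNA library, at 2.23 CPM, lies under the highest Ctrl-gRNA library, at 2.36 CPM. These 7 were picked by the test between the groups, and 57.9% of all tested genes were separate.

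Of the posterior HoxA members 1, Hoxa9, rose. This gene, which acts in the limb and in blood progenitors, had 29.1, 27.8 and 32.4 CPM in the Prr33-gRNA libraries and 26.6, 26.5 and 23.9 CPM in the Ctrl-gRNA libraries, without overlap (log2 fold change 0.21, SE 0.08; edgeR adjusted p = 0.0318). This call was lost in DESeq2, in both fits on FPKM and without Ctrl-gRNA replicate 3 or Prr33-gRNA replicate 3 (adjusted p 0.00248 to 0.185 over the alternatives). Hoxa10, the most abundant HoxA member, had 41.5, 44.7 and 43.6 CPM in the Prr33-gRNA libraries and 37.5, 39.3 and 41.1 CPM in the Ctrl-gRNA libraries. These did not overlap, yet the gene did not pass (log2 fold change 0.14, SE 0.07; edgeR adjusted p = 0.0842), except under scaling by library size alone (0.23, adjusted p = 0.00483, and 0.00483 to 0.270 over the alternatives). Hoxa11, a gene of the forearm and lower leg, and Hoxa13, of the hand and foot, had log2 fold changes of 0.07 (SE 0.12) and 0.46 (SE 0.36) with overlapping groups. In GENCODE M21, 800 of the 2287 exonic bases of Hoxa11 are shared with Hoxa11os on the opposite strand. Hoxa11os had a log2 fold change of -0.26 (SE 0.16) and did not pass (edgeR adjusted p = 0.191).

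Summed over a cluster, HoxA stood at 43.8, 48.5 and 48.3 FPKM in the Prr33-gRNA libraries and at 39.2, 39.2 and 38.1 FPKM in the Ctrl-gRNA libraries. HoxC stood at 61.1, 66.1 and 62.5 FPKM in the Prr33-gRNA libraries and at 75.3, 78.4 and 76.4 FPKM in the Ctrl-gRNA libraries. The HoxA share of all Hox FPKM was 42.6% ± 0.968 in Prr33-gRNA and 33.6% ± 0.521 in Ctrl-gRNA (SD, n = 3 each), and the groups did not overlap. Sums and shares are given as descriptions, with no test. The total over all Hox genes overlapped between the groups, at 105 to 115 FPKM in Prr33-gRNA and 115 to 118 FPKM in Ctrl-gRNA.

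A ratio of paralogues taken within a library does not depend on how libraries are scaled. These ratios were chosen after the values were seen and are given without a test. The Hoxa9 to Hoxc9 ratio in FPKM was 1.0, 0.862 and 0.876 in the Prr33-gRNA libraries and 0.443, 0.464 and 0.403 in the Ctrl-gRNA libraries. The levels were thus near each other in Prr33-gRNA, while Hoxc9 was well above Hoxa9 in every Ctrl-gRNA library. The Hoxa10 to Hoxc10 ratio was 0.821, 0.767 and 0.888 in the Prr33-gRNA libraries, against 0.552, 0.616 and 0.668 in the Ctrl-gRNA libraries. The ratios for numbers 4, 5 and 6 averaged 0.300, 1.43 and 0.341 in Prr33-gRNA, against 0.151, 1.03 and 0.181 in Ctrl-gRNA, and each was without overlap. Those for numbers 11 and 13 overlapped between the groups.

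**Figure D4:**
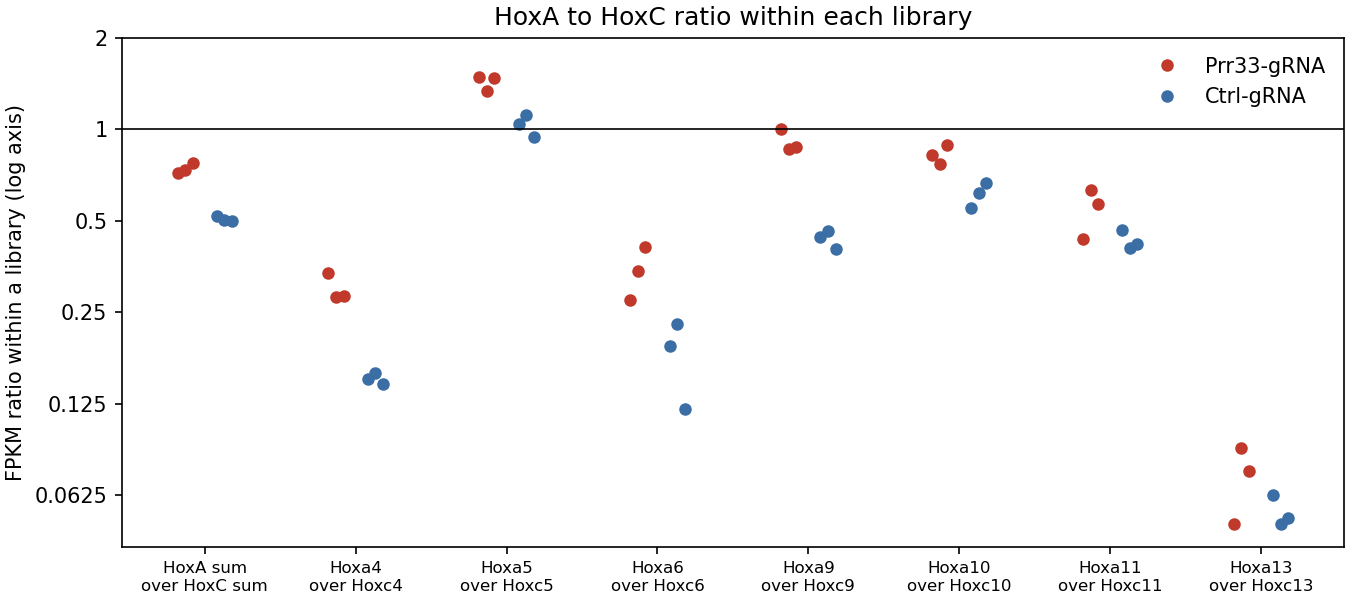
Ratio of HoxA to HoxC FPKM within each library on a log axis, for the cluster sums and for the 7 paralogue numbers present in both clusters; each point is a library, Prr33-gRNA left in red and Ctrl-gRNA right in blue, and the line marks equal levels. The cluster ratio is 0.717 to 0.774 in Prr33-gRNA and 0.498 to 0.520 in Ctrl-gRNA, and the pairs numbered 4, 5, 6, 9 and 10 also do not overlap.

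Of 34 tested protein-coding genes starting within 500 kb of a cluster, 13 were higher and 7 lower, beside 52.1% called among all tested genes, and the median was 0.08 on the log2 scale. On the low-coordinate side of HoxA (chr6:52155590-52260880), Skap2, for an adaptor protein of leukocyte signalling, averaged 104 CPM in Prr33-gRNA and 56.9 CPM in Ctrl-gRNA (log2 fold change 0.87, edgeR adjusted p = 2.1e-15). Between Skap2 and the cluster lies the noncoding RNA Halr1, which was picked out after its values were seen and was too low to be tested. It had 10, 3 and 7 counts in the Prr33-gRNA libraries and 1, 1 and 3 in the Ctrl-gRNA libraries, so the groups overlapped at 3 counts. On the other side of HoxA, Tax1bp1 was higher (log2 fold change 0.20, edgeR adjusted p = 0.000329) and Hibadh did not pass (-0.00, edgeR adjusted p = 0.998). Near HoxC 3 of 16 were higher and 6 lower, among them Itga5, for the fibronectin receptor subunit, at -0.65 (edgeR adjusted p = 6.33e-15), and Nckap1l at -1.61 (edgeR adjusted p = 1.79e-08). Near HoxB 6 of 13 were higher and 1 lower, and that gene, Nfe2l1, had -0.49 (edgeR adjusted p = 1.46e-09). For HoxD 2 of 2 were higher, Lnpk at 0.19 (edgeR adjusted p = 0.0251) and Mtx2 at 0.24 (edgeR adjusted p = 0.00214). The Lnpk call held in 11 of 17 alternatives.

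The counts of the lists that follow stand beside 25.5% higher and 26.6% lower among all tested genes. Of the 9 TALE cofactors, each of which was tested, 3 fell and 1 rose. Pknox2 averaged 34.2 ± 1.78 CPM in Prr33-gRNA and 60.05 ± 1.36 CPM in Ctrl-gRNA (SD, n = 3 each; log2 fold change -0.81, edgeR adjusted p = 8.74e-13). Meis3 averaged 3.71 ± 0.548 CPM in Prr33-gRNA and 9.93 ± 1.61 CPM in Ctrl-gRNA (log2 fold change -1.42, edgeR adjusted p = 1.16e-08). Meis1 fell by 0.30 and Pbx3 rose by 0.23 on the log2 scale. The Pbx3 call was lost in DESeq2 and without Ctrl-gRNA replicate 1 or 2 or Prr33-gRNA replicate 1 or 3, where 0 cofactors were higher. Meis1 was called in 8 of 17 alternatives (adjusted p 0.0212 to 0.137), and its call was lost in DESeq2, under library size alone, without a low-count filter, in both fits on FPKM and without Ctrl-gRNA replicate 2 or 3 or Prr33-gRNA replicate 1 or 3. Pbx2, Pbx4, Meis2 and Pknox1 did not pass. Median log2 fold change over the list was -0.14.

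Among 31 Polycomb genes 11 rose and 9 fell (median -0.01 on the log2 scale), beside 25.5% higher and 26.6% lower among all tested genes. Suz12 and Ezh2 belong to the core of the complex that methylates histone H3 at a lysine linked to silencing, and both rose. The core gene Eed, at 0.09, did not pass. Ezh1 fell by 0.20 (edgeR adjusted p = 0.0158) and Phf19 by 1.13 (edgeR adjusted p = 1.59e-06) on the log2 scale, so the list did not move one way. Suz12 averaged 164 CPM in Prr33-gRNA and 107 CPM in Ctrl-gRNA (log2 fold change 0.62). Ezh2, a methyltransferase, had 67.4 CPM in Prr33-gRNA and 46.1 CPM in Ctrl-gRNA (0.55). Bmi1, of Polycomb complex 1, rose by 0.41, while Pcgf5 fell by 0.46 on the log2 scale. Scaling by library size alone left 4 rather than 9 that fell. Among 12 tested trithorax and demethylase genes 6 rose and 2 fell (median 0.14). The 2 that fell were Kmt2d, a histone methyltransferase of active genes, at -0.43 and Kdm6b, a demethylase that removes the Polycomb mark, at -0.33, and Psip1 and Ash1l rose by 0.29 and 0.26.

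Retinoic acid switches on Hox genes from the low-numbered end in embryos. Of 13 tested genes of retinoic acid handling and related inputs, 2 rose and 5 fell (median 0.09). Aldh1a1, which makes retinoic acid, averaged 6.28 ± 1.02 CPM in Prr33-gRNA and 0.190 ± 0.0751 CPM in Ctrl-gRNA (SD, n = 3 each; log2 fold change 4.98, edgeR adjusted p = 7.61e-15). Its Ctrl-gRNA mean is close to the 0.162 to 0.182 CPM that 3 counts equal in those libraries, so the size of the change is uncertain. The receptor gene Rarg fell by 0.55, and Cyp26a1 and Cyp26b1, whose products break retinoic acid down, fell by 0.72 and 1.36 on the log2 scale. Cdx1, Cdx2 and Cdx4, upstream activators of Hox genes in the tail of the embryo, had 0 counts in every library. The counts of this list moved to 4 higher and 3 lower under scaling by library size alone and without Ctrl-gRNA replicate 1, and to 1 higher and 3 lower without Prr33-gRNA replicate 1.

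Of 19 tested other transcription factors of position 2 rose and 8 fell (median -0.17), and the number that rose was 4 without Ctrl-gRNA replicate 1, without Prr33-gRNA replicate 3 and without a low-count filter. The paired-type factors of limb mesenchyme Prrx2 and Prrx1 rose, by 1.06 and 1.28. Shox2, a factor of the upper limb segments, averaged 11.95 ± 1.47 CPM in Prr33-gRNA and 29.3 ± 3.40 CPM in Ctrl-gRNA (SD, n = 3 each; log2 fold change -1.29, edgeR adjusted p = 1.45e-12), and Pitx3 fell by 1.63. Tbx5 and Tbx4, of forelimb and hindlimb, had 0 counts in every library. Of the 6 ParaHox and related genes 0 were tested. Among 190 other protein-coding genes that the deposited table classes as homeobox factors, a list chosen after values were seen, 48 were tested, 11 rose and 21 fell (median -0.17).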

How the data were processed

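Per the labels' protocols, total RNA came from a TRIzol extraction and went into a NEBNext Ultra kit. The gene counts that the authors deposited are whole, unnormalized reads per gene. The FPKM values were also deposited by the authors. Their scaling and the strand setting were not given in the sources used here. The library sizes implied by FPKM were 1.0279 to 1.0395 times total counts in Prr33-gRNA and 0.9728 to 0.9776 times in Ctrl-gRNA. The submitters' processing notes list CASAVA, HISAT2 2.0.5, featureCounts 1.5.0-p3 and build mm10. Rows without an Ensembl ID (333, with 0.199% to 0.252% of counts) name loci and stayed in.

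Counts went through edgeR 4.0.16 in R 4.3.3 (quasi-likelihood F test, filterByExpr, TMM, robust fitting, 2 groups, no covariate), with Benjamini-Hochberg adjustment over 14651 genes and a threshold of 0.05. The SE is the absolute log2 fold change over the square root of F. CPM uses TMM-scaled library sizes. Within-group library pairs had a chi-square per gene of 2.89 to 5.68, above counting noise. Limits from 3 counts cover counting error only. Exon overlaps are from GENCODE M21. The members and lists were chosen with earlier results of these data known. By rule the text names the Hox members, each tested noncoding gene of a cluster, up to 4 called genes with the lowest adjusted p of each list and of the flanking genes, and Prr33. Some results are not reported here, though counts over the family and lists include them. Other genes named were picked after their values were seen. Alternatives were RLE factors, library size alone, DESeq2 1.42.0, limma 3.58.1 (voom, and log2 of FPKM plus 1 or 0.1), other filters, protein-coding genes only, chromosome 14 left out, a replicate block, stricter thresholds and leaving out each library. The fits were tested on simulated data. Figures were drawn with matplotlib 3.10.9.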

Additional observations from a re-analysis of the deposited data

How the results depend on the processing

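Of 339 values for the 20 tested Hox members under 17 alternative fits, 15 crossed the threshold and 0 changed direction in a call; 10 lost a call (Hoxa6, Hoxa9 and Hoxc11) and 5 gained one (Hoxa5, Hoxa10 and Hoxc6). Hoxa4, Hoxc9, Hoxc10 and Hoxc12 were called in all 17. Same-numbered libraries showed no pairing (deviations correlated at -0.01, -0.01 and 0.02), and with a replicate block 4 Hox members were higher and 4 lower. Leaving out single libraries gave 2 to 4 higher, all in HoxA, and 3 to 5 lower, all in HoxC. An adjusted p below 0.01 left 2 higher and kept Hoxc9, Hoxc10 and Hoxc12 lower, without Hoxc11 (edgeR adjusted p = 0.0101). Requiring a log2 change of 1 or more in size left 1 higher and 0 lower. Both are stricter settings. Of the other genes inside the clusters, 1 was higher without a low-count filter, and 0 were lower with protein-coding genes only, which leaves noncoding genes out. TALE cofactors gave 2 higher under library size alone, 0 higher in DESeq2 and 0 to 1 higher when single libraries were left out. Polycomb genes gave 4 lower under library size alone, and the retinoic acid list 4 higher and 3 lower. Leaving out single libraries gave 1 to 4 higher and 3 to 5 lower in the retinoic acid list and 2 to 4 higher among positional factors, which also had 4 higher without a low-count filter. The cause was not tested for the others. Of 2969 values for 176 other genes, 146 crossed the threshold and 0 changed direction in a call. Depth limits the low members most: Hoxa2, Hoxa13 and Hoxc8 had at most 98 counts per group. Their SEs of 0.29 to 0.37 were close to or above the 0.29 by which Hoxc10 fell.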
